A study of Mus musculus with 6 samples.

Results

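Colonic epithelium takes up sodium, chloride and water from the gut contents, and the 9 genes described here encode the membrane proteins that carry much of this traffic in mouse colon. They are the 3 subunits of the epithelial sodium channel ENaC (Scnn1a, Scnn1b and Scnn1g), the sodium-proton exchangers NHE2 and NHE3 (Slc9a2 and Slc9a3), the beta-1 subunit of the sodium-potassium pump (Atp1b1), the chloride channel Cftr, the bestrophin channel Best2 and the water channel Aqp4. They were chosen by symbol, and all 9 were found among the 20170 genes of the table. Colon RNA was sequenced from 6 samples of wild-type C57BL/6J mice, all of which received the mutagen azoxymethane (AOM, 10 mg/kg) and then the irritant dextran sulfate sodium (DSS, 2% in the drinking water, 3 rounds), a model of colitis-associated colon tumours. The 3 control samples had no further treatment, and the 3 restrained samples came from mice that were also held daily for 3 to 4 hours in a ventilated 50 mL tube (chronic restraint stress). No sample from mice without AOM and DSS was part of the comparison, which asks how restraint goes with colonic expression in this model. Replicate numbers only name samples, and sets of 3 values are listed in the order of replicates 1, 2 and 3. The labels give neither age, sex nor the position along the colon. Nor do they state that each sample is a separate mouse, so a p-value describes only the spread seen here, which may be technical.

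Sodium absorption in the colon runs along 2 routes. In the electroneutral route NHE2 and NHE3 exchange luminal sodium for protons beside chloride-bicarbonate exchange. In the electrogenic route ENaC, a channel built from an alpha, a beta and a gamma subunit, lets sodium in at the apical membrane of distal colonocytes, and the sodium-potassium pump moves it out across the basolateral membrane. Aldosterone drives the electrogenic route, and in rat distal colon it raises the mRNA of the beta and gamma subunits while alpha mRNA is held steady. Secretion runs the other way, with chloride leaving through Cftr and water following.

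The samples held 27160547 to 33017500 counts each, and the 9 genes had between 25 and 48992 counts in a sample, all above the filter on low counts. Levels between samples are given as counts per 1000000 counts (CPM) after TMM scaling. Levels between genes are given as the authors' FPKM, which are per length. The labels call the cells colorectal cancer cells, but the libraries held RNA of epithelium and of muscle: Epcam, of epithelium, stood at 2035 to 2575 CPM, and Acta2, of smooth muscle, at 436 to 1239 CPM. Control replicate 1 stood apart with 0.811 CPM of the crypt stem cell receptor Lgr5, against 21.5 to 119 CPM in the other 5 samples, and control replicate 3 held 890 CPM of the squamous keratin Krt5, against 0.67 CPM or less elsewhere. Log2 fold changes that rest largely on either library are given with and without it.

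Scnn1b, the beta subunit of ENaC, was the 1 gene of the 9 whose groups did not overlap. Its level was 2.34-fold higher in restrained samples, short of the threshold in edgeR, whereas Aqp4, Slc9a2, Cftr and Scnn1a had lower estimates that rested largely on control replicate 1. By the edgeR quasi-likelihood test 0 of the 9 genes passed an adjusted p of 0.05, as for 0% of all 15890 genes tested. At an unadjusted p under 0.05 stood 1 of the 9, Scnn1b, beside 16.6% of all genes. DESeq2 called Scnn1b alone among the 9, beside 5.16% of all genes (2.28% as higher), and limma-voom called none. The groups did not overlap for 1 of the 9, beside 23.8% of all genes (12.5% as higher). Each count is 0 or 1 gene, too few to tell the share among the 9 from that among all genes. Their median log2 fold change, restrained minus control, was -0.16, and that of all genes -0.01.

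**Figure D1:**
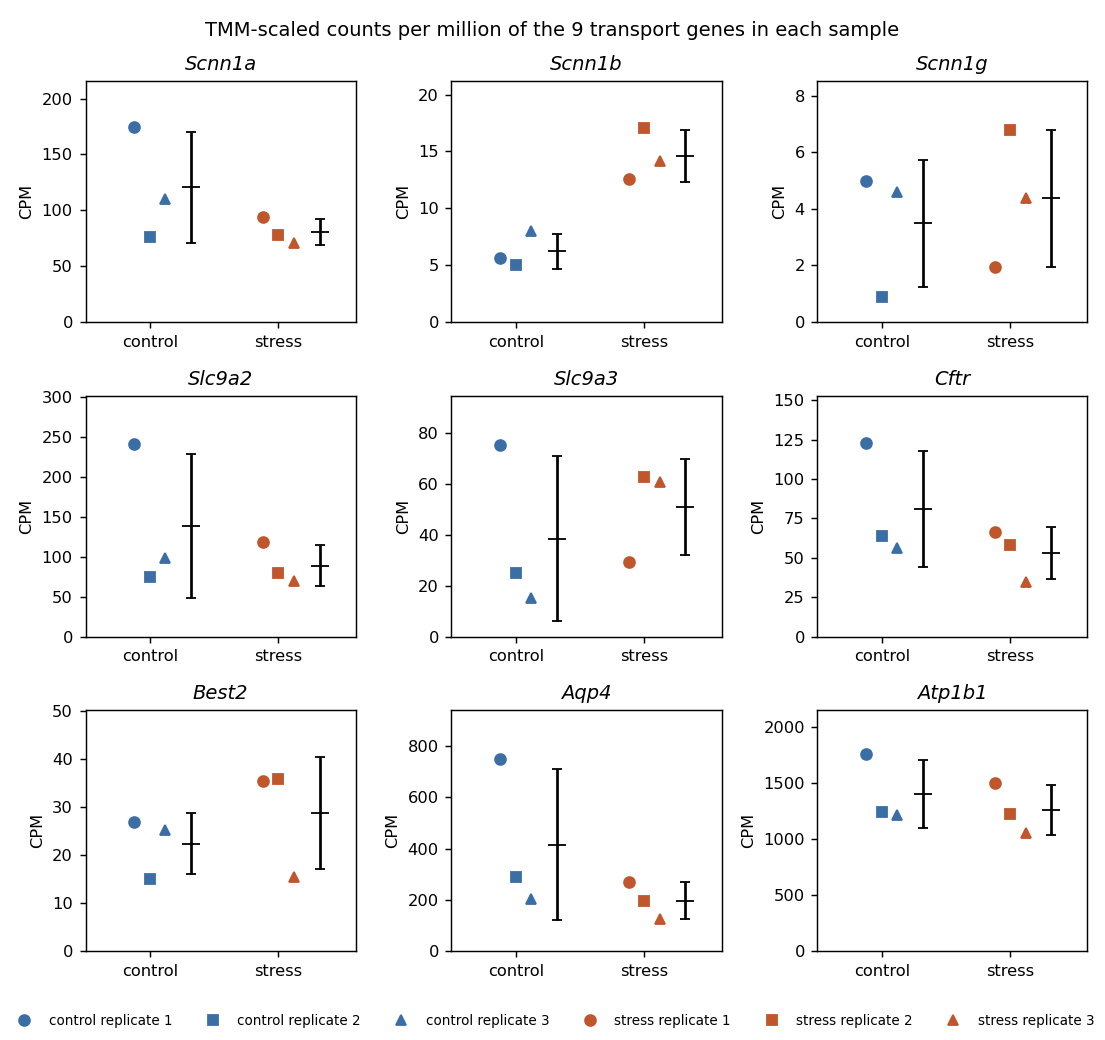
Level of each transport gene in each sample, in TMM-scaled CPM, on a linear axis from 0 for each gene. Symbols give the replicate and colours the group (restrained samples are marked stress), and the horizontal bar with whiskers is the group mean ± SD (n = 3). For Scnn1b the restrained samples, at 12.6 to 17.0 CPM, all lie above the controls, at 5.05 to 7.97 CPM, and for the other 8 genes the groups overlap.

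The promoter windows of Scnn1b and of its neighbour on chromosome 7, Scnn1g, are printed because these subunits of a single channel had different patterns in the 6 samples, as described next. Each window covers 250 bases before to 50 after the gene's start, from RefSeq on GRCm38.p6 (the submitters' processing notes name another build, GRCm39), at chr7:121864788-121865087 for Scnn1b and chr7:121734229-121734528 for Scnn1g, both on the plus strand. Capitals mark matches to the motifs searched on both strands.
Scnn1b: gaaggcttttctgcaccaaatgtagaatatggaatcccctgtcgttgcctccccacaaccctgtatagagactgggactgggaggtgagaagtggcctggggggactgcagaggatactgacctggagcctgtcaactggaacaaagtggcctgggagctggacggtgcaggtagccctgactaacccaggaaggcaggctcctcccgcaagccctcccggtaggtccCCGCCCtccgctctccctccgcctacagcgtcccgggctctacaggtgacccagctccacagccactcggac
Scnn1g: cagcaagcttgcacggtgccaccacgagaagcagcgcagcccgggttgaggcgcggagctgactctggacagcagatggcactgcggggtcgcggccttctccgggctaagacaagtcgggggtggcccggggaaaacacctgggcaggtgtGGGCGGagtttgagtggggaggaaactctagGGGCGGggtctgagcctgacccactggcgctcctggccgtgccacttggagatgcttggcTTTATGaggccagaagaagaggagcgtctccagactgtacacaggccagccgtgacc
The motifs were the GC box GGGCGG, the TATA box TATAAA, the CDX site TTTATG and the steroid receptor hexamer AGAACA. In the printed windows no matches overlapped. They were chosen after expression values had been seen. The Scnn1b window held 1 GC box, on the minus strand at position -22 counted from the start. The Scnn1g window held 2 GC boxes, at -98 and -67, and a CDX site at -7. Of all 32851 windows of this length 35.7% held a GC box, 11.9% the CDX site, 13.6% the TATA box and 19.0% the hexamer. Windows were at hand for 5 of the 9 genes (also Slc9a3, Cftr and Atp1b1). All 5 held a GC box, and the letters of the TATA box and of the hexamer are in none of these 5 windows. GC content was 61.7% for Scnn1b and 64.7% for Scnn1g, against a median of 52.7% over all windows.

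Scnn1b reached 5.68, 5.05 and 7.97 CPM in the controls and 12.6, 17.0 and 14.2 CPM in the restrained samples. Each restrained sample thus lay above each control, and the gap between the groups (7.97 to 12.6 CPM) exceeded the SD within either (6.23 ± 1.54 CPM in controls and 14.6 ± 2.27 CPM in restrained samples, n = 3 each). The log2 fold change was 1.23 ± 0.24 (SE), with an edgeR adjusted p of 0.191, the smallest that any gene reached and one shared by 292 genes. DESeq2 gave the same estimate with an adjusted p of 0.00055. Leaving out each sample in turn gave log2 fold changes of 1.10 to 1.44, with 1.16 without control replicate 1 and 1.44 without control replicate 3, and edgeR adjusted p of 0.194 to 0.536. Scaled to 10 epithelial marker genes in place of the whole transcriptome, the log2 fold change was 1.29 ± 0.31 (edgeR adjusted p = 0.322). These values rest on 140 to 262 reads per control and 410 to 534 per restrained sample.

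Scnn1a, the alpha subunit, had a lower estimate in restrained samples within a wide spread of the controls. The controls held 174, 76.6 and 110.5 CPM and the restrained samples 93.8, 77.6 and 70.8 CPM. Control replicate 1 was the highest and the groups overlapped. The log2 fold change was -0.58 ± 0.29 (edgeR adjusted p = 0.351) and -0.21 without control replicate 1. Scnn1g, the gamma subunit, was the scarcest of the 9 genes, at 4.98, 0.902 and 4.59 CPM in the controls and 1.96, 6.80 and 4.39 CPM in the restrained samples. Control replicate 2 and restrained replicate 1 were low, so that each group spanned a wide range (log2 fold change 0.33 ± 0.69, edgeR adjusted p = 0.827). Leaving out control replicate 2 or restrained replicate 2 turned the sign of its estimate, to -0.13 in either case.

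Within each sample the subunits were then compared per length. Scnn1a made up most of the summed FPKM of the 3 subunits, with 93.1%, 91.3% and 87.9% in the controls and 84.1%, 72.8% and 75.8% in the restrained replicates. The share of Scnn1b was 3.73%, 7.40% and 7.80% in controls and 13.8%, 19.6% and 18.7% in restrained samples, again with no overlap. The FPKM ratio of Scnn1b to Scnn1a was 0.0401, 0.0810 and 0.0887 in controls and 0.164, 0.270 and 0.246 in restrained samples. Such a ratio does not depend on the scaling between samples. On the log2 scale it was -3.92 ± 0.63 in controls and -2.17 ± 0.38 in restrained samples (SD, n = 3 each), a difference of 1.75, and the two-sided exact permutation test gave p = 0.1, the smallest that 3 samples against 3 allow (0.5 adjusted over the 10 ratios computed). Leaving out each sample in turn gave differences of 1.39 to 1.96. The ratio of Scnn1g to Scnn1a overlapped between the groups (log2 difference 1.01, 0.49 to 1.61 with a sample left out, exact permutation p = 0.3). So did that of Scnn1b to Scnn1g, whose difference was 0.74 (exact permutation p = 0.4), 0.25 without control replicate 1 and 1.40, with no overlap, without control replicate 2.

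**Figure D2:**
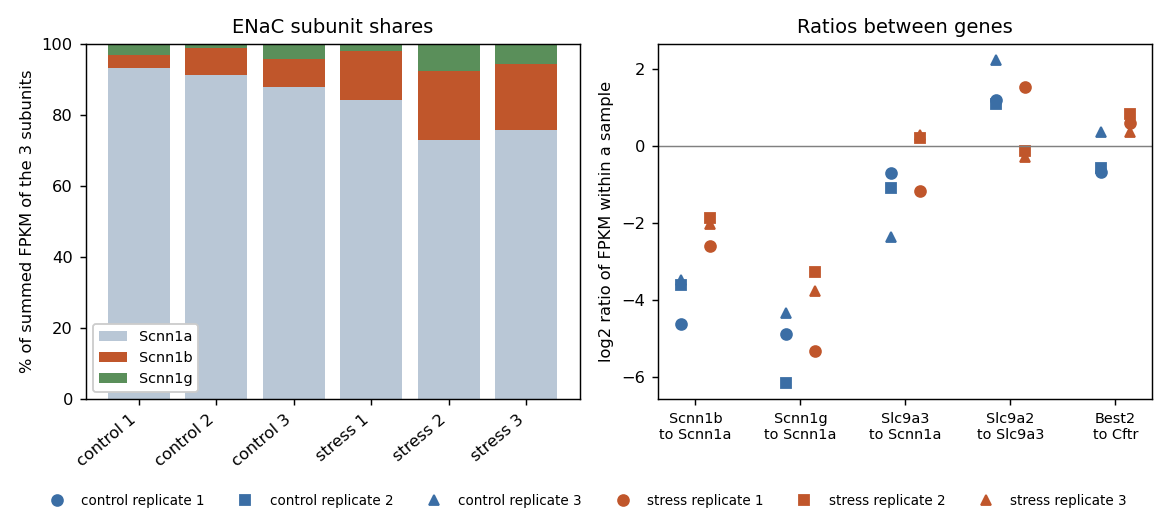
Left, share of each ENaC subunit in the summed FPKM of the 3 subunits, as stacked bars per sample. Right, log2 ratio of the FPKM of gene pairs within each sample, with symbols for replicates and colours for groups. Scnn1b takes 3.73% to 7.80% in controls and 13.8% to 19.6% in restrained samples, and its ratio to Scnn1a is the only one of the 5 plotted ratios whose groups do not overlap.

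Slc9a3, which encodes NHE3, and Slc9a2, which encodes NHE2, behaved differently from each other. For Slc9a3 the controls held 75.6, 25.2 and 15.1 CPM and the restrained samples 29.5, 63.0 and 60.7 CPM. Control replicate 1 was thus the highest sample, restrained replicates 2 and 3 came next, and restrained replicate 1 lay just above the other controls. The log2 fold change was 0.40 ± 0.62 (edgeR adjusted p = 0.752). Without control replicate 1 it was 1.34 with no overlap between the groups, and it still missed the threshold (edgeR adjusted p = 0.278), and without control replicate 3 it was 0.0189. Slc9a2 stood at 241, 74.9 and 98.6 CPM in controls and 118, 79.7 and 69.2 CPM in restrained samples. Its log2 fold change of -0.64 ± 0.46 (edgeR adjusted p = 0.486) became 0.04 without control replicate 1. The FPKM ratio of Slc9a2 to Slc9a3 was 2.28, 2.12 and 4.66 in the controls and 2.85, 0.902 and 0.812 in restrained replicates 1, 2 and 3, so Slc9a3 was the higher of the pair only in restrained replicates 2 and 3. The groups overlapped in this ratio (log2 difference -1.14, -1.72 to -0.78 with a sample left out, exact permutation p = 0.3). The log2 ratio of Slc9a3 to Scnn1a differed by 1.16 with overlap (0.67 to 1.63 with a sample left out, exact permutation p = 0.3). Scnn1a is only 1 subunit of ENaC, and the estimate of Scnn1b went the other way, so this ratio does not compare the 2 sodium routes.

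Atp1b1, the beta-1 subunit that brings the sodium-potassium pump to the membrane, was the most abundant of the 9 genes and the least variable. It was at 1756, 1243 and 1218 CPM in controls and 1500.4, 1228 and 1052 CPM in restrained samples, with control replicate 1 highest. The log2 fold change was -0.16 ± 0.20 (edgeR adjusted p = 0.699), and 0.03 without control replicate 1.

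Cftr, the cyclic AMP-regulated chloride channel of the apical membrane, was found at 123, 64.1 and 56.0 CPM among the controls and at 66.5, 57.9 and 34.4 CPM among the restrained samples. Control replicate 1 was again highest and restrained replicate 3 lowest. The log2 fold change was -0.61 ± 0.36 (edgeR adjusted p = 0.408) and -0.18 without control replicate 1. Best2, a channel that mouse colon carries in goblet cells and that takes part in bicarbonate secretion, stood at 26.8, 15.0 and 25.2 CPM in controls and 35.3, 35.7 and 15.4 CPM in restrained samples. The samples lowest in Best2, control replicate 2 and restrained replicate 3, were also the lowest in the summed level of 9 goblet cell markers, at 6233 and 6217 CPM, against 8547 to 15288 CPM in the other 4. The part of goblet cells in the level of Best2 was not tested. Its log2 fold change was 0.37 ± 0.37 (edgeR adjusted p = 0.615), and leaving out a sample gave 0.15 (without control replicate 2) to 0.67 (without restrained replicate 3). The FPKM ratio of Best2 to Cftr was 0.621, 0.669 and 1.28 in controls and 1.52, 1.76 and 1.27 in restrained samples (log2 difference 0.89, exact permutation p = 0.2).

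Aqp4, a water channel of the basolateral membrane of colonic surface epithelium, had the lowest estimate of the 9 genes. The controls held 751, 289 and 204 CPM and the restrained samples 269, 198 and 127 CPM. Control replicate 1 was 5.93 times the lowest sample, restrained replicate 3, and restrained replicate 1 lay between the other controls. The log2 fold change was -1.07 ± 0.53 (edgeR adjusted p = 0.349, DESeq2 adjusted p = 0.166) and -0.32 without control replicate 1. The FPKM ratio of Aqp4 to Aqp8, the other main water channel of colonic epithelium, was 0.277, 0.553 and 0.194 in controls and 0.310, 0.517 and 0.279 in restrained samples (log2 difference 0.20, exact permutation p = 0.7).

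**Figure D3:**
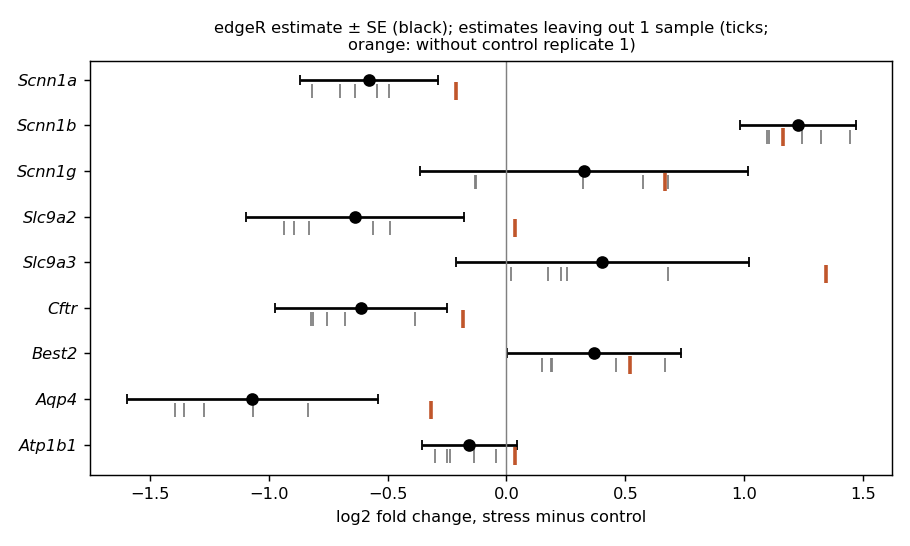
Log2 fold change of each transport gene, restrained minus control, from edgeR with its SE (black) and from the 6 fits that each leave out a sample (ticks below, with the fit without control replicate 1 in orange). Scnn1b stays between 1.10 and 1.44, whereas without control replicate 1 Aqp4 moves from -1.07 to -0.32, Slc9a2 from -0.64 to 0.04 and Slc9a3 from 0.40 to 1.34.

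The order of the 9 genes by FPKM was led by Atp1b1 in all 6 samples and closed by Scnn1b and then Scnn1g in all 6. In controls the means were 531 ± 90.3 for Atp1b1, 67.2 ± 44.7 for Aqp4, 38.2 ± 23.1 for Slc9a2, 33.5 ± 12.3 for Scnn1a, 14.9 ± 11.9 for Slc9a3, 12.5 ± 5.05 for Cftr and 9.87 ± 2.54 for Best2 (SD, n = 3 each). Scnn1b followed at 2.16 ± 0.55 and Scnn1g at 1.14 ± 0.72. From Aqp4 to Best2 the neighbours in this order differed by less than the larger of their SDs, except for Scnn1a and Slc9a3. The steps from Atp1b1 to Aqp4, from Best2 to Scnn1b and from Scnn1b to Scnn1g were larger than the SD of either gene. In restrained samples Slc9a3, at 20.9 ± 7.90, lay within 1 SD of Slc9a2 at 25.8 ± 6.89 and Scnn1a at 23.4 ± 2.91, and in restrained replicate 3 it ranked behind Atp1b1 only.

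The pattern of the 6 samples was shared by several of the 9 genes. Scnn1a, Slc9a2, Slc9a3, Cftr, Aqp4 and Atp1b1, 6 of the 9, were highest in control replicate 1, as were 26.0% of all genes tested, and Scnn1a, Slc9a2, Cftr, Aqp4 and Atp1b1 were lowest in restrained replicate 3. Markers of mature absorptive colonocytes moved with them. The 10 markers summed to 20853, 13597 and 15219.9 CPM in the controls and to 14453, 12163 and 9235 CPM in the restrained samples. Of the 10, 9 were highest in control replicate 1. The pattern was not particular to colonocytes. Of 10 general epithelial markers 9 were also highest in control replicate 1. Their sum was highest there, at 16881 CPM, and lowest in restrained replicate 3, at 11729 CPM. So were 6 of 9 goblet cell and 5 of 6 enteric neuron markers highest in control replicate 1, against 3 of 6 for smooth muscle and 0 of 6 for crypt stem cells. All 10 colonocyte markers had lower estimates in restrained samples (median log2 fold change -0.62). In edgeR 0 of them passed, with 2 of the 10 at an unadjusted p under 0.05, beside 16.6% of all genes. DESeq2 called 1 of the 10, Tmigd1, beside 5.16% of all genes. These counts are too few to tell from the shares among all genes. In bulk tissue, fewer cells of a type and less RNA per cell cannot be told apart, and the part of colonocyte content in these results was not tested.

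The genes of most similar pattern were found by the root mean square difference (RMS) of mean-centred log2 CPM over the 6 samples, among 11937 genes with a mean of at least 5 CPM. For Scnn1a these were Slc9a3r1, which encodes the scaffold NHERF1 (RMS 0.0733), Ap1s3, an adaptor subunit of vesicle transport (0.0807), and Krt20, a keratin of differentiated colonocytes (0.0875), against a spread of Scnn1a itself of 0.443. For Slc9a2 they were Sectm1b (RMS 0.0972), Cdhr2, a brush border protocadherin (0.118), and Rundc3b (0.121). For Aqp4 they were Nxpe2 (RMS 0.122), Fabp2, a fatty acid binding protein of absorptive cells (0.136), and Fa2h (0.156). Krt20 and Cdhr2 were on the list of colonocyte markers. Scnn1b had other neighbours, Dnajc6, which encodes the clathrin uncoating factor auxilin (RMS 0.110), Exoc4, a subunit of the exocyst (0.184), and Fam189a1 (0.214), against its own spread of 0.660. Dnajc6 was at 4.54, 4.55 and 5.66 CPM in controls and 9.40, 12.5 and 10.9 CPM in restrained samples, with no overlap, as for Scnn1b. Because Dnajc6 was picked for its likeness to Scnn1b in these same samples, that lack of overlap is no separate result. Cftr lay nearest to Prkca, protein kinase C alpha (RMS 0.0765), Best2 to Trim56 (0.110) and Atp1b1 to Wsb1 (0.0137). For Slc9a3 and Scnn1g the nearest genes, Thbs1 and Cyp2c65, remained 0.459 and 0.584 away, so neither had a close counterpart.

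Cell type markers that moved with the grouping, as Scnn1b did, were those of crypt stem cells on the higher side and of smooth muscle, enteric neurons and glia on the lower side. The summed level of 6 stem cell markers was 234 to 456 CPM in controls and 564 to 1079.6 CPM in restrained samples, with all 6 estimates higher. That of 6 smooth muscle markers was 4908 to 6671 CPM in controls and 2188 to 3676 CPM in restrained samples, with all 6 lower. For 5 markers of enteric glia it was 18.2 to 31.8 CPM against 9.73 to 10.6 CPM, with all 5 lower. For 6 of enteric neurons it was 85.9 to 149 CPM against 57.7 to 74.7 CPM, with 5 lower and 1, Ret, higher. Ret itself overlapped, at 15.9 to 24.5 CPM in controls and 21.7 to 35.5 CPM in restrained samples. No marker of these 4 lists was at 0 counts in any sample. Epithelial markers overlapped, at 13548 to 16881 CPM in controls and 11729 to 15176 CPM in restrained samples, and so did the 4 posterior Hox genes read as signs of position along the gut. Hoxb13 was even, at 259 to 315 CPM in controls and 246 to 321 CPM in restrained samples. Hoxd13 was not, at 65.6 to 265 and 38.9 to 263 CPM, nor Hoxd12, at 0.590, 1.52 and 26.2 CPM in controls and 22.4, 28.7 and 0.512 CPM in restrained samples. The part of position in the results was not tested. The 6 squamous markers summed to 2702 CPM in control replicate 3 and to 3.43 to 63.3 CPM in the other samples, and without that replicate the fold change of Scnn1b was larger. The part of the stem cell, muscle and nerve markers in the difference of Scnn1b was not tested.

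**Figure D4:**
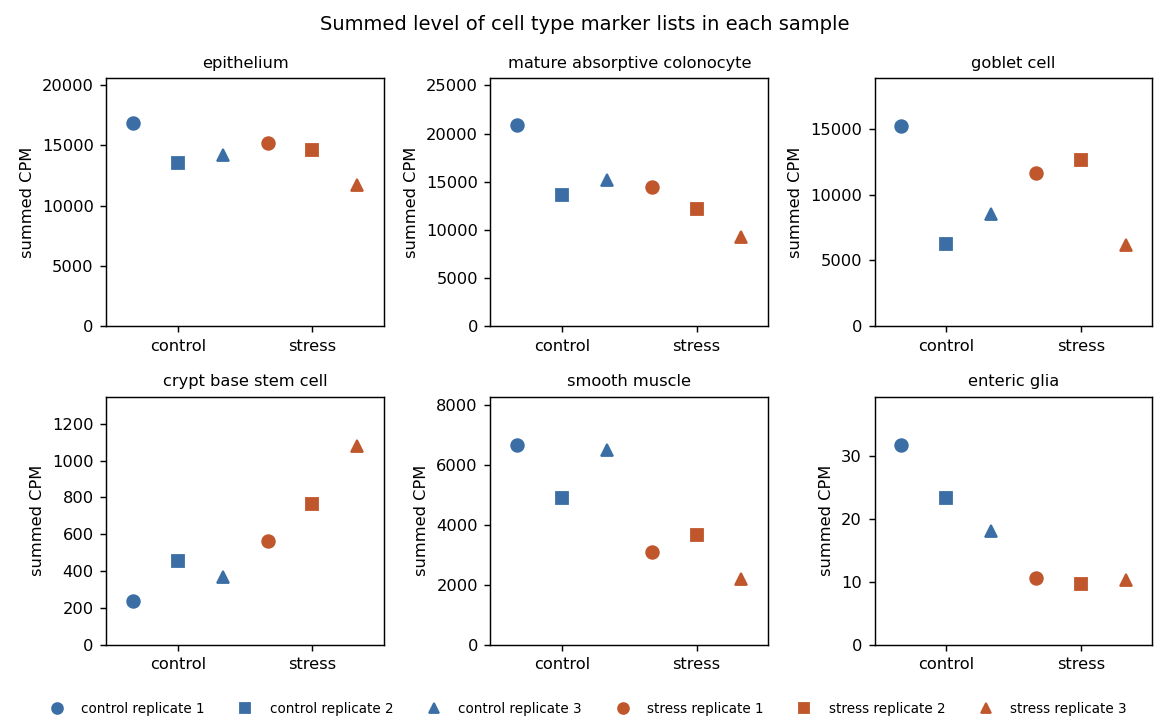
Summed level of 6 cell type marker lists in each sample, in TMM-scaled CPM, on linear axes from 0 with symbols for replicates and colours for groups. Stem cell markers are higher and smooth muscle and glia markers lower in all 3 restrained samples than in any control, whereas epithelial, colonocyte and goblet cell markers overlap between the groups.

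Further genes of ion and water transport were read from 5 lists of 69 genes in the table, of which 65 passed the filter on low counts. In edgeR 0 of the 65 passed an adjusted p of 0.05, as for 0% of all genes, and limma-voom also called 0. At an unadjusted p under 0.05 stood 16 of the 65, 4 higher and 12 lower, beside 16.6% of all genes (7.82% as higher and 8.82% as lower). DESeq2 called 7, which were Furin and Kcnq1 as higher and Tsc22d3, Usp2, Car2, Atp1b2 and Fxyd1 as lower, beside 5.16% of all genes. The groups did not overlap for 6 genes as higher and 10 as lower, beside 12.5% and 11.2% of all genes. The median log2 fold change of the 65 was -0.16.

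Among 20 genes of sodium entry and its control the median log2 fold change was -0.06, with 1 gene higher and 4 lower at an unadjusted p under 0.05. Furin, a protease that cleaves and so activates the alpha and gamma subunits of ENaC, was at 59.6 ± 8.96 CPM in controls and 90.9 ± 9.92 CPM in restrained samples, with no overlap (log2 fold change 0.61 ± 0.14, edgeR adjusted p = 0.191, DESeq2 adjusted p = 0.0160). A pair of steroid-responsive regulators had lower estimates. Tsc22d3, the glucocorticoid-induced leucine zipper, stood at 62.4 ± 19.9 and 33.3 ± 2.08 CPM without overlap (edgeR adjusted p = 0.195, DESeq2 adjusted p = 0.0122). Usp2, a deubiquitinase that acts on ENaC, was at 18.9 ± 8.80 and 8.35 ± 2.08 CPM, also without overlap (edgeR adjusted p = 0.240, DESeq2 adjusted p = 0.0385). Without control replicate 1 the log2 fold change of Tsc22d3 went from -0.90 to -0.61 and that of Usp2 from -1.18 to -0.73, both still without overlap. Sgk1, the kinase through which aldosterone keeps ENaC at the membrane, stood at 223 CPM in control replicate 1 and at 44.8 to 78.8 CPM in the other 5 samples, with a log2 fold change of -1.07 ± 0.52 (edgeR adjusted p = 0.343) and -0.24 without control replicate 1. Nedd4l, the ubiquitin ligase that removes ENaC, had a log2 fold change of -0.38 ± 0.16 with overlap (edgeR adjusted p = 0.298). Without control replicate 1 the estimate of Nedd4l was -0.21, also with overlap. The mineralocorticoid receptor Nr3c2 was at 36.6 ± 16.4 and 35.1 ± 10.7 CPM, Hsd11b2, the enzyme that shields it from glucocorticoids, at 134 ± 32.2 and 119 ± 60.6 CPM, and the glucocorticoid receptor Nr3c1 at 69.2 ± 2.40 and 53.1 ± 9.17 CPM, the last without overlap (edgeR adjusted p = 0.268).

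Among 15 genes of chloride and bicarbonate transport the median was -0.46, with 1 gene higher and 3 lower at an unadjusted p under 0.05, and 11 of the 15 were highest in control replicate 1. Slc26a3, the main chloride-bicarbonate exchanger of the colon, and Car4, a carbonic anhydrase of the colonocyte surface, each had a log2 fold change of -1.48, with SE of 0.69 and 0.60 (edgeR adjusted p = 0.333 and 0.297). Without control replicate 1 these were -0.48 and -0.69. Car2, the cytosolic carbonic anhydrase, stood lower without overlap, at 632 ± 242 CPM in controls and 316 ± 59.8 CPM in restrained samples (edgeR adjusted p = 0.227, DESeq2 adjusted p = 0.0192). Without control replicate 1 the log2 fold change of Car2 went from -0.999 to -0.64. The bicarbonate cotransporter Slc4a4 also stood lower without overlap (log2 fold change -0.85 ± 0.28). On the secretory side Slc12a2, which loads chloride into the cell across the basolateral membrane, was at 341 ± 12.5 and 473 ± 107 CPM without overlap (log2 fold change 0.47 ± 0.18, edgeR adjusted p = 0.273). The FPKM ratio of Cftr to Slc26a3, of secretion to absorption, was 0.0514 to 0.157 in controls and 0.108 to 0.151 in restrained samples (log2 difference 0.63, exact permutation p = 0.4). That difference was 0.29 without control replicate 1 and 1.09, with no overlap, without control replicate 2.

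Among 15 genes of potassium channels and the pump the median was -0.14, with 2 genes higher and 4 lower at an unadjusted p under 0.05. Kcnq1, a basolateral potassium channel that sustains chloride secretion, was at 45.8 ± 2.84 CPM in controls and 65.1 ± 2.49 CPM in restrained samples, with no overlap (log2 fold change 0.51 ± 0.09, edgeR adjusted p = 0.191, DESeq2 adjusted p = 0.00116), and leaving out each sample gave 0.46 to 0.54. Fxyd1, a pump regulator known from heart and muscle, was at 17.0 ± 2.24 and 8.75 ± 0.56 CPM (edgeR adjusted p = 0.191, DESeq2 adjusted p = 9.36e-05). Atp1b2, the beta-2 pump subunit known from glia and neurons, stood at 6.63 ± 0.63 and 3.62 ± 0.52 CPM (edgeR adjusted p = 0.215, DESeq2 adjusted p = 0.0130). Kcnma1, a potassium channel of smooth muscle and epithelium, had -0.56 ± 0.18 (edgeR adjusted p = 0.250). Fxyd1, Atp1b2 and Kcnma1 were lower without overlap, as were the summed smooth muscle and glia markers given above, whose part in these values was not tested.

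Of the 5 water channel genes tested besides Aqp4, 0 stood at an unadjusted p under 0.05, and the median was -0.26. Aqp8 was likewise highest in control replicate 1, with 678 CPM there and 95.4 to 262 CPM in the other samples (log2 fold change -1.33 ± 0.63, edgeR adjusted p = 0.337), and -0.47 without that replicate. Aqp7 and Aqp9 were scarce, each with a mean under 1 CPM, and Aqp11 was at 8.64 ± 1.23 and 7.23 ± 1.78 CPM. Among 10 genes of guanylin signalling and second messengers, which turn fluid uptake into secretion, the median was -0.13 and 1 gene, Pde5a, stood lower at an unadjusted p under 0.05 (log2 fold change -0.40 ± 0.17, edgeR adjusted p = 0.297). Guca2a, the peptide guanylin, was at 833 CPM in control replicate 1 and 137 to 317 CPM elsewhere, with a log2 fold change of -0.96 ± 0.58 that became -0.10 without that replicate. Its receptor Gucy2c was at 171 ± 41.1 and 157 ± 39.2 CPM. Prkg2, a cyclic GMP-dependent kinase that acts on Cftr, reached 0.516, 24.4 and 17.6 CPM in the controls and 33.3, 53.9 and 81.7 CPM in the restrained samples, without overlap (log2 fold change 1.99 ± 1.06, edgeR adjusted p = 0.375). Control replicate 1 was far below the others, and without it the estimate was 1.42 ± 0.39 (edgeR adjusted p = 0.261). Ptger4, a prostaglandin E2 receptor, had a log2 fold change of -0.42 ± 0.18 without overlap (edgeR adjusted p = 0.304) and -0.21 without control replicate 1. Vipr1, a receptor of vasoactive intestinal peptide, had -0.47 ± 0.24 with overlap (edgeR adjusted p = 0.352) and -0.23 without that replicate.

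**Figure D5:**
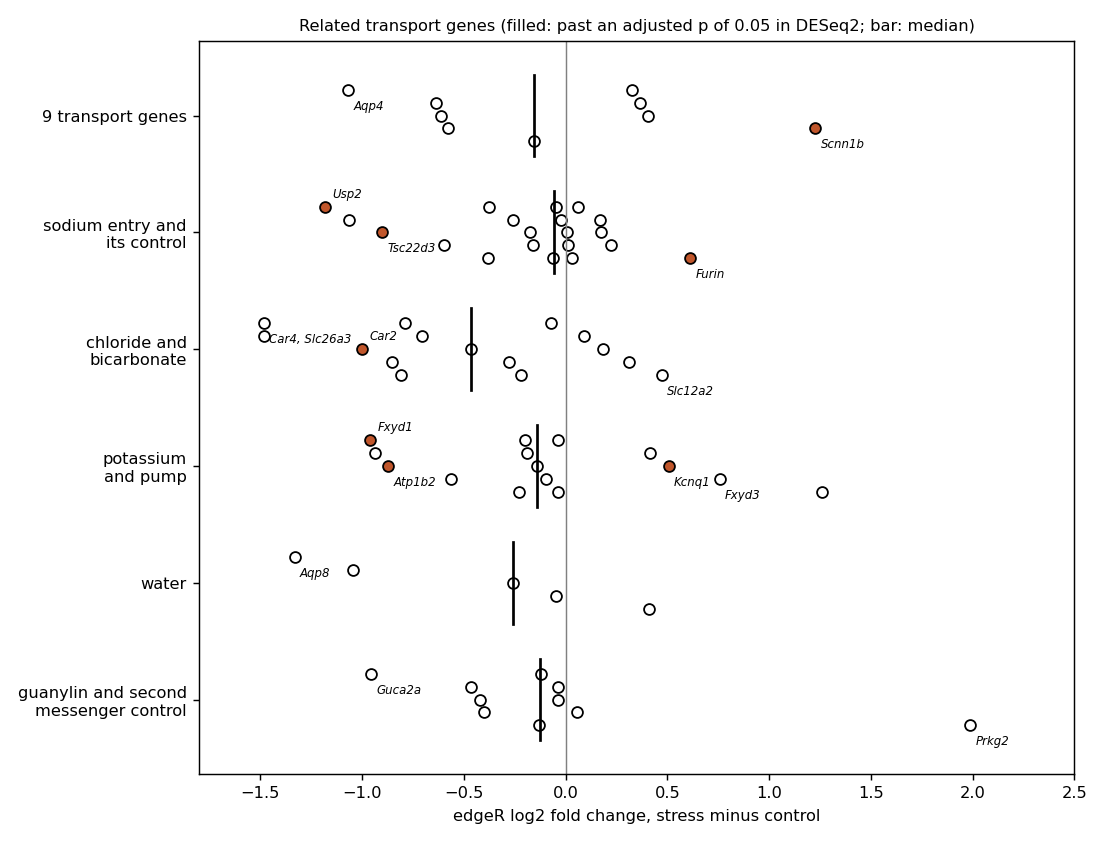
EdgeR log2 fold change, restrained minus control, of the 9 transport genes and of the tested genes of 5 related lists, each circle a gene and each bar a list's median. Filled circles passed an adjusted p of 0.05 in DESeq2, and none passed in edgeR. Scnn1b, Furin and Kcnq1 are the filled genes on the higher side, and the chloride and bicarbonate list has the lowest median, at -0.46.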

How the data were processed

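RNA from 3 control and 3 restrained colon samples was analysed. Per the file headers the authors deposited raw read counts per gene and, beside them, FPKM per gene (fragments per kilobase, scaled to depth). Tools listed by the submitters' processing notes are HISAT2 2.1.0, fastp 0.19.3, StringTie 1.3.4d, featureCounts 1.6.2, edgeR 3.24.3 and DESeq2 1.22.1. They list GRCm39 as the build and give no roles. The strand setting and annotation behind the counts are not stated, and reads of overlapping genes cannot be told apart.

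Counts were filtered with filterByExpr (15890 of 20170 genes kept), scaled with TMM and tested with edgeR 4.0.16 (robust quasi-likelihood, R 4.3.3), with Benjamini-Hochberg adjustment over all genes and a threshold of 0.05. SE is the absolute log2 fold change over the square root of F. DESeq2 1.42.0 and limma 3.58.1 (voom) were run beside it. Ratios of 10 gene pairs used FPKM, with two-sided exact permutation tests (scipy 1.17.1). The pattern search used log2 CPM with a prior count of 2. The edgeR, DESeq2 and voom fits and the pattern search were tested on simulated data. There DESeq2 made more false calls than edgeR or voom, but it also recovered more of the planted changes. Each of these fits missed some of the planted changes. No pair of samples was alike within sampling noise (chi-square per gene 39.3 or more, where noise gives about 1).

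At these depths 3 counts, the limit a count of 0 allows, are 0.0909 to 0.110 CPM, which covers counting error only. The members, lists and tests were chosen with earlier results of these data known. All 9 members are named, and from each related list up to 4 genes of smallest p plus 10 genes fixed by name, of which 1, with the ratio that uses it, is not reported here. Fxyd1, Furin and Kcnq1 came from this rule; Lgr5, Krt5, Epcam, Acta2 and the Hox genes serve as markers.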

Additional observations from a re-analysis of the deposited data

How the results depend on the processing

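All alternatives were planned: 9 that changed scaling, tool, filter, dispersion or unit, and 6 that left out a sample each. No paired analysis was possible because the labels give no pairing of samples. DESeq2 moved the calls most, with 818 genes past the threshold, 7 of the related lists and 1 of the 9 (Scnn1b, log2 fold change 1.23), where edgeR under every other alternative, limma-voom and limma on FPKM gave 0; the cause was not tested. With DESeq2 2 of the 9 genes stood at an unadjusted p under 0.05, and leaving out a sample gave 1 to 2 such genes, 1 to 2 genes and 1 to 5 of the 10 ratios without overlap. Fewer samples make overlap rarer by construction. Leaving out a sample gave log2 fold changes that turned sign for Scnn1g (-0.13 to 0.68, negative without control or restrained replicate 2), Slc9a2 (-0.93 to 0.0363), Atp1b1 (-0.30 to 0.0347), Aqp9 (-0.16 to 0.95), Nr3c2 (-0.35 to 0.30), Hsd11b2 (-0.55 to 0.17) and Gucy2c (-0.25 to 0.0881). The turn came without control replicate 1 for all but Scnn1g, and without restrained replicate 3 for Nr3c2, Hsd11b2 and Gucy2c. Nr3c2 also turned with epithelial scaling (0.0109), limma-voom (0.0038) and FPKM (0.0466). The log2 ratio difference of Aqp4 to Aqp8 ranged from -0.14 (without control replicate 3; -0.0749 without restrained replicate 2) to 0.62. No scaling shifted the log2 fold changes from the main fit by a median over genes of more than 0.0668. Depth limits Scnn1g most, with 25 counts in its lowest sample.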
